A study of Mus musculus with 8 samples.

Results

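The core and output genes of the circadian clock were examined in liver RNA: Dbp, Tef, Nfil3, Nr1d1, Arntl, Clock, Per1, Per2, Per3 and Cry1. A probe set (a group of short probes for 1 transcript) counted where the platform annotation gave it exactly 1 symbol and that symbol was a member. Of the 12488 probe sets on the array, 13 did so. All 10 genes had at least 1, and each gene was represented by its brightest probe set. Of these, 8 were bright enough to test (a mean intensity of at least 165.2, the median of all values), while Arntl and Clock were dimmer and are given as values only.

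The samples were livers of 8 female Ames dwarf mice, homozygous for the df allele (df/df), on 1 Affymetrix U74Av2 array each. Every mouse was fed 30% less than freely fed df/df females ate, and was killed at 24 to 26 months of age. Ames dwarf mice carry a defect of pituitary development and lack growth hormone, prolactin and thyroid stimulating hormone. Freely fed dwarfs and normal littermates were not analysed here, so dwarfism, diet and age are shared by all 8 livers and their parts cannot be told apart. The labels used here give neither the hour of death nor the time since the last meal, so clock phase, feeding and other differences between mice cannot be told apart. Whether the 8 mice came from separate cages or litters is not in the labels either, and the p-values treat each mouse as independent.

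The clock of a liver cell is a feedback loop of transcription factors. CLOCK and BMAL1 (the product of Arntl) bind E-box motifs and switch on Per, Cry, Nr1d1 and Dbp genes. PER and CRY proteins then inhibit CLOCK and BMAL1, and REV-ERB alpha, the product of Nr1d1, represses Arntl and Nfil3 through RORE motifs. DBP and TEF carry the rhythm to metabolic genes through D-box motifs, and NFIL3 represses from the same motifs. In mouse liver Dbp and Nr1d1 messages swing widely over the day, so the hour of sampling matters to their level.

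The liver label was met by albumin (Alb), at an intensity of 29253 ± 4809 (SD, n = 8), and by 7 measured hepatocyte markers of 8 listed. Mice 6 and 8 stood apart from the other 6 livers in several marker lists. Their summed macrophage markers (10 of 10 listed measured, none below the floor in all mice) were 29911 and 19033, against 5007 to 10304 in the other mice. Summed interferon response genes (15 of 16 measured, none below the floor in all mice) were 56314 in mouse 6 and 43494 in mouse 8, against 4019 to 26843. For T and NK cell markers (6 of 7 measured, 2 bright enough to test, 2 below the floor in all mice) the sums were 2441 and 2075, against 186 to 1000.5. Summed hepatocyte markers were 101211 and 103222 in mice 6 and 8, and 106591 to 149480 in the others. The 2 livers were not alike in every list. Neutrophil markers (4 of 4 measured, 1 of them tested) summed to 979 in mouse 6 and 444 in mouse 8, against 320 to 388. Stellate markers (4 of 5 measured) summed to 3166 and 2548, against 2173 to 2795. For B and plasma cell markers both livers were inside the range of the others (1485.5 and 1358, against 1318 to 1963). The same held for exocrine pancreas markers (1054 and 1182, against 977 to 1339). Endothelial markers summed to 910 and 566, against 711 to 1136, and erythrocyte markers to 6629 and 5649, against 6524 to 12740. Adipocyte markers (3 of 4 measured, 1 of them tested) summed to 6491 and 7656, against 9461 to 13299. Nearly all of that sum was 1 gene, Car3, at 6295 and 7507 in mice 6 and 8 and 9279 to 13104 in the others. In bulk liver RNA, fewer cells of a type and less RNA per cell cannot be told apart. Values are therefore given with and without these 2 livers.

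Sequences just before the transcription starts of members are shown because the loop works through motifs there. Windows ran from 250 bases before to 50 after each RefSeq start (build GRCm38.p6), and 9 of the 10 genes matched (all but Per2). Both strands were searched for 4 motifs: the E-box CACGTG, its variant CACGTT, the D-box TTATGTAA or TTATGCAA, and the RORE (AAN, then T, then AGGTCA or GGGTCA). Over all 32851 promoter windows these occurred in 7.15%, 4.68%, 1.66% and 0.435% in that order. Printed stretches read 5′ to 3′ on the gene's strand, with motifs in capitals (an E-box variant on the other strand reads AACGTG). They lie at chr7:45705047-45705246 (forward strand) for Dbp, chr11:98775378-98775577 (reverse strand) for Nr1d1, chr11:69098779-69098948 (forward strand) for Per1, chr4:151044766-151044915 (reverse strand) for Per3 and chr10:85185055-85185174 (reverse strand) for Cry1.
Dbp promoter: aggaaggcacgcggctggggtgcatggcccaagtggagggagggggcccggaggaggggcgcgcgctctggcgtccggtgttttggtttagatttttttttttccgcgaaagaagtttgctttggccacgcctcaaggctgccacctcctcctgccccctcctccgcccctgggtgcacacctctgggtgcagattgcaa
Nr1d1 promoter: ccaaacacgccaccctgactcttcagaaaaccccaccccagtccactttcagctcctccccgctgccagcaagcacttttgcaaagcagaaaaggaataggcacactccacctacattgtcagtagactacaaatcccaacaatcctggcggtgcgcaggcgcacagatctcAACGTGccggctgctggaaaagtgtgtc
Per1 promoter: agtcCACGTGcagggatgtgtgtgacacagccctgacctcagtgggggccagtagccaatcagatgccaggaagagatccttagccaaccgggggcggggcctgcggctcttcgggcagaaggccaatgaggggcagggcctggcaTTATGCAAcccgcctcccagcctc
Per3 promoter: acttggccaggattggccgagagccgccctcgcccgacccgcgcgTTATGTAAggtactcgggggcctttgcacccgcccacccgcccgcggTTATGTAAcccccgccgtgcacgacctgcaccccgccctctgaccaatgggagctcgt
Cry1 promoter: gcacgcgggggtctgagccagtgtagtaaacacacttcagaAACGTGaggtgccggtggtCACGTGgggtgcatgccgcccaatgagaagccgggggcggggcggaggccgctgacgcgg

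Per3 held 2 D-boxes, at -205 to -198 and -158 to -151 relative to its start. Per1, which has 2 annotated starts, held an E-box at -166 to -161 and a D-box at -24 to -17 of the first. The Cry1 window held an E-box at -60 to -55 and the variant at -79 to -74. In Nr1d1 the variant lay at -28 to -23. Each of the 2 Tef promoters held an E-box, and 1 of the 2 Arntl promoters a RORE at positions 28 to 37 counted from its start. None of the 4 motifs was found in these windows of Dbp, Nfil3 or Clock, which says only that those letters are not there. A match is a description of letters and not a measured binding site.

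Among the output factors, Dbp, the D-box binding PAR bZIP factor, had the largest log2 SD of the tested members over all 8 livers. Its intensities in mice 1 to 8 were 1694, 2061, 1439, 1969, 1788, 762, 1439 and 856. The low values were those of mice 6 and 8, and the other 6 livers lay between 1439 and 2061. The mean was 1501 ± 481 (SD, n = 8), and the highest liver was 2.70 times the lowest. On the log2 scale the SD between mice was 0.54, and it came to 0.22 without mice 6 and 8. Per3 had the larger SD without mouse 6 (0.49, with Dbp at 0.43) and without both (0.50), and about the same without mouse 8 (0.49 for each). The median SD of all 6265 tested probe sets was 0.24.

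Tef, the thyrotroph embryonic factor and a second PAR bZIP activator, ran from 2613 in mouse 8 and 2917 in mouse 6 to 4638 in mouse 1, with a median of 3833. Its lowest livers were again mice 8 and 6, with all other livers at 3539 or above. The spread was narrower than that of Dbp, at 1.77-fold and a log2 SD of 0.29 (0.15 without mice 6 and 8).

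Nfil3, the repressor that competes for D-boxes, was near the limit of testing. Its brighter probe set, which shares probes with related transcripts, ran from 153 in mouse 5 to 252 in mouse 6, a 1.65-fold range. Mouse 6 was also highest on the other Nfil3 probe set, at 181, against 58.9 to 116 in the remaining livers. Across mice the 2 probe sets gave r = 0.357 (exact permutation p = 0.390) and rho = -0.238, so they did not order the livers alike. For Nfil3, then, mouse 6 was the high liver on both probe sets, while mouse 8 (164 on the brighter one) was not.

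Nr1d1, the REV-ERB alpha repressor, had intensities of 1128, 1212, 711, 1143, 783, 656, 912 and 510 in mice 1 to 8. Livers 8 and 6 were lowest, but mice 3 and 5 were close above them, so Nr1d1 formed a continuum rather than a separate pair. The mean was 882 ± 258 (SD, n = 8) and the range 2.38-fold. Its log2 SD of 0.44 became 0.32 without mice 6 and 8.

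The activators were dim. Arntl, encoding BMAL1, ran from 44.3 to 67.5 in 7 livers and reached 112 in mouse 6, with mouse 8 at 65.9. Clock, its partner, lay between 120.5 in mouse 8 and 169.5 in mouse 6, a 1.41-fold range. Mouse 6 had the highest Arntl value, and its Clock value barely passed that of mouse 5 (168.8). The means over the 8 livers, 64.9 for Arntl and 149 for Clock, were below the level set for testing.

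Of the period genes, which encode the inhibitors that close the loop, Per3 varied most. It was 1473 and 1435 in mice 1 and 2, 971 and 1069 in mice 4 and 7, and 620 to 741 in mice 3, 5, 6 and 8. Mice 6 and 8 (723 and 715) were thus in its low range but were not its lowest livers. Per3 had a log2 SD of 0.48, and 0.50 without mice 6 and 8. Per1 ran from 348 in mouse 5 and 361 in mouse 8 to 685 in mouse 4, a 1.97-fold range. Per2 was steadier, with 394 to 461 in 7 livers and 306 in mouse 6. Its log2 SD of 0.18 was under the median of all tested probe sets. Cry1, encoding the other class of inhibitor, ran from 317 in mouse 2 to 590 in mouse 5 with a median of 363, on a probe set that shares probes with related transcripts. The 2 other Cry1 probe sets ran from 0.2 to 5.2 and from 1.4 to 19.1, below the floor of 37.2 in every liver. All Cry1 values given here thus rest on the 1 shared probe set. Each of these genes had its own order of livers, and Per1, Per2 and Cry1 put different mice at the bottom.

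**Figure D1:**
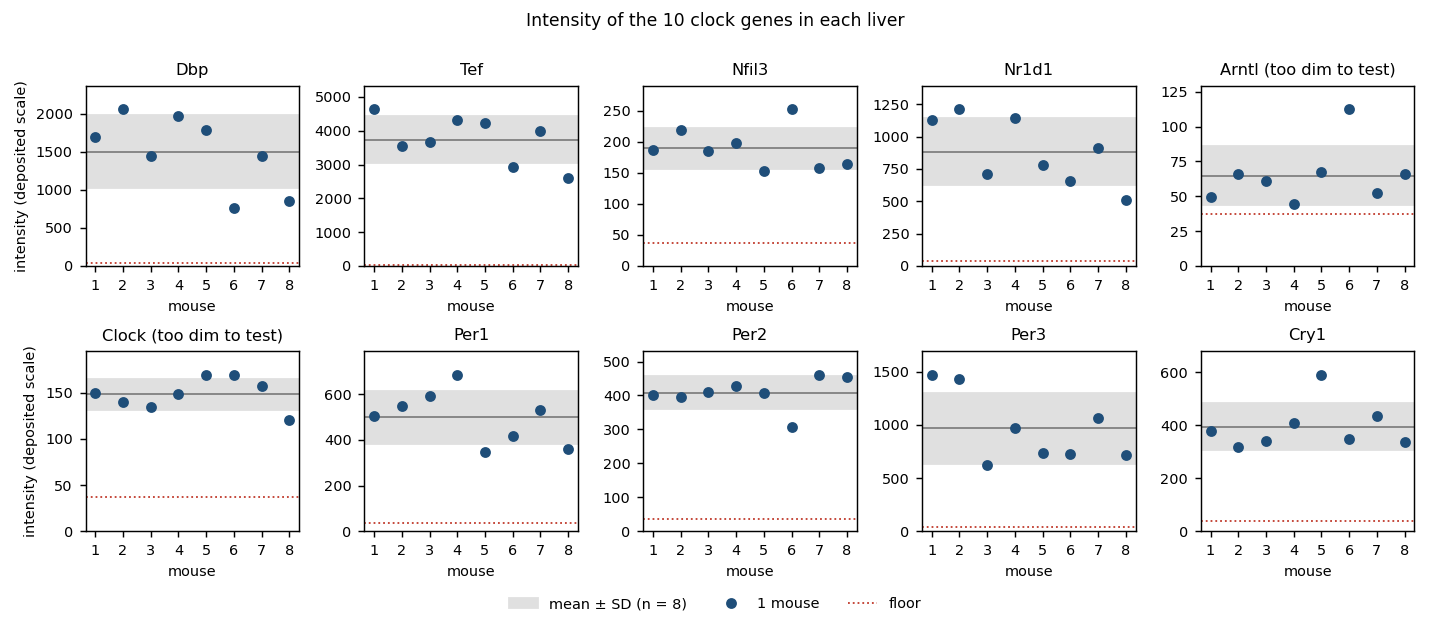
Deposited intensity (linear axis from 0) of the 10 clock genes, 1 panel per gene, against mouse number 1 to 8; points are single livers, the line and grey band are mean ± SD (n = 8), and the dotted line is the floor of 37.2. Dbp in mice 6 and 8 was 762 and 856, below the 1439 to 2061 of the other 6 livers, while Per2 was low only in mouse 6.

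The first comparison asked whether the clock genes differed more between mice than genes of their brightness do. A one-sided F test (limma, variance over 8 mice against the variance expected at that brightness, Benjamini-Hochberg over all tested probe sets) called 0 of the 8 members. It called 0 of 6265 probe sets, a background of 0%. In data simulated with the scatter of variances seen here, the test recovered none of the probe sets that had been given a wider spread. Its count of 0 therefore says nothing about the members, and the values that follow are a description. At an unadjusted p under 0.05 it picked 1 of 8 members, Dbp, where 400 probe sets (6.38%) were picked overall. The variance of Dbp was 7.29 times the expected one, higher than in 94.6% of tested probe sets, with an adjusted p of 0.760. The same ratio was 5.56 for Per3 (adjusted p = 0.852), 4.75 for Nr1d1 (adjusted p = 0.889) and 2.49 for Per1. It was 1.96 for Tef, 1.54 for Cry1, 0.630 for Per2 and 0.507 for Nfil3. The median over the 8 members was 2.22, beside 1.06 over all tested probe sets. A chi-square test against the same brightness trend, which takes the expected variance as exact, called Dbp, Nr1d1 and Per3, 3 of 8 members, where 1147 probe sets (18.3%) were called.

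**Figure D2:**
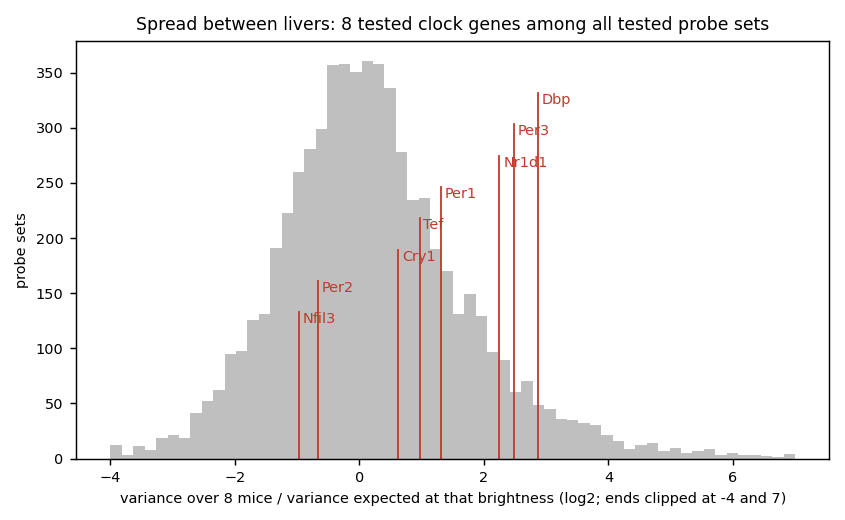
Histogram of the number of tested probe sets (6265 in all) by log2 of the variance over 8 mice divided by the variance expected at that brightness, with ends clipped; each red line marks 1 of the 8 tested clock genes, and line heights carry no value. Dbp, Per3 and Nr1d1 (ratios of 7.29, 5.56 and 4.75) lie in the right tail, and Per2 and Nfil3 (0.630 and 0.507) lie left of the middle.

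The next comparison asked which clock genes moved together across livers. In all, 9 pairs were computed on the log2 scale over 8 mice, with an exact two-sided permutation test and Benjamini-Hochberg adjustment over the 9. Dbp and Nr1d1 gave r = 0.843 (exact permutation p = 0.00511, adjusted p = 0.0460) and rho = 0.857 (exact permutation p = 0.0107, adjusted p = 0.0964). Without mice 6 and 8, the livers farthest from the Dbp median, r was 0.700 with an adjusted p of 0.628 by the same permutation test over 6 mice. The pair passed the threshold with mouse 5 left out (adjusted p = 0.0250, permutation test) and missed it when any other single mouse was left out (adjusted p from 0.0911 to 0.175). The r stayed between 0.766 and 0.902 in those 8 repeats. Dbp and Tef gave r = 0.825 (exact permutation p = 0.0192, adjusted p = 0.0864) and rho = 0.524. Their r was 0.0467 without mice 6 and 8, so that relation rests on those livers.

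Other pairs were looser. Dbp and Per3 gave r = 0.567 and rho = 0.524 (exact permutation p = 0.146 for r), with r = 0.443 without mice 6 and 8. For Dbp and Per1 r was 0.534 and rho 0.429 (exact permutation p = 0.172), with r = 0.0266 without those livers. Dbp gave r = 0.375 with Per2, 0.338 with Cry1 and -0.212 with Nfil3 (rho of -0.143, 0.0476 and 0.0714), none past the threshold. With the mean of all Nfil3 probe sets, r of Dbp and Nfil3 was -0.790 (exact permutation, adjusted p = 0.0527). Per1 and Per2, partners in the same inhibitory complex, gave r = 0.160 and rho = 0.143 (exact permutation p = 0.735 for r), with r = 0.730 without mice 5 and 8, the livers farthest from the Per1 median, and 0.214 without mice 6 and 8. Nr1d1 and Nfil3, a repressor and its known target, gave r = 0.175 and rho = 0.262 (exact permutation p = 0.676 for r), with r = -0.269 without mice 2 and 8, farthest from the Nr1d1 median, and 0.651 without mice 6 and 8. With the brightness limit dropped, Arntl could be set against others: r was -0.692 with Dbp (exact permutation p = 0.0573, adjusted over 14 pairs p = 0.267) and -0.564 with Nr1d1. Without mice 6 and 8, Dbp and Arntl gave r = 0.0238.

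**Figure D3:**
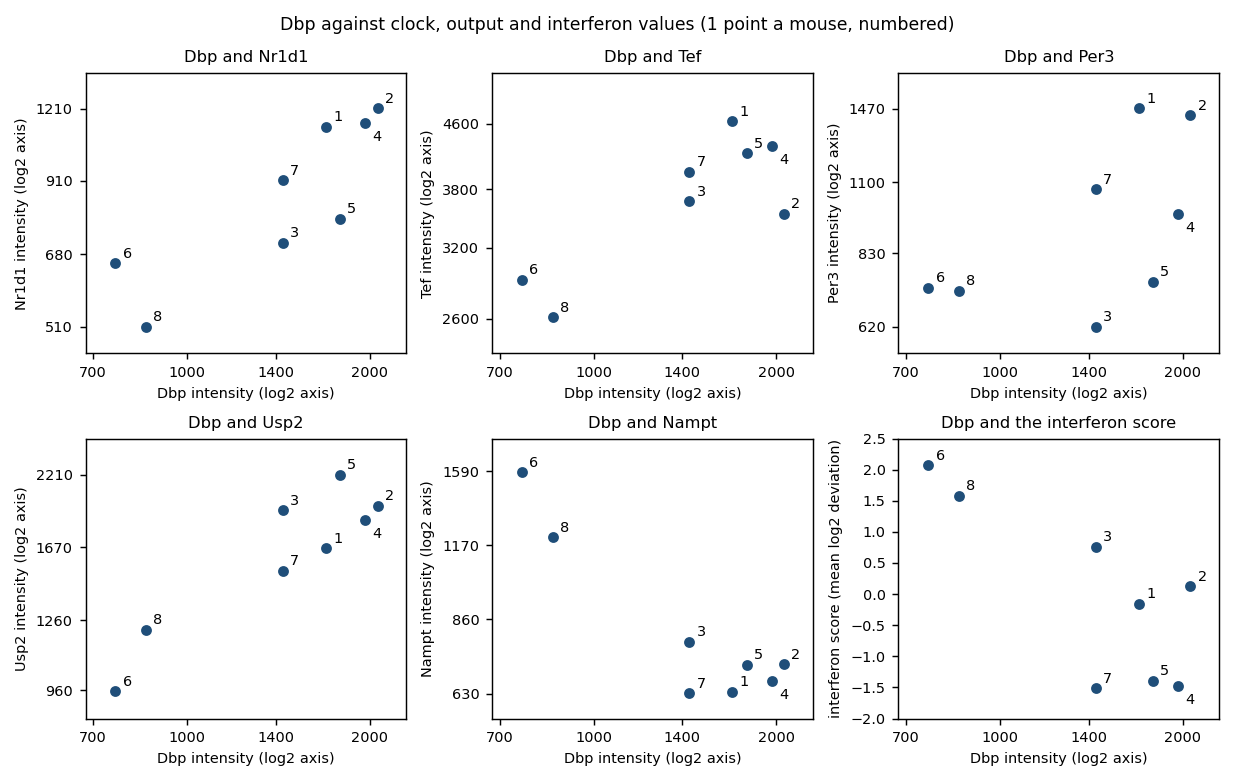
Intensity of Nr1d1, Tef, Per3, Usp2 and Nampt (log2 axes) and the interferon score (linear axis, mean log2 deviation of the listed genes) against Dbp intensity (log2 axis), 1 numbered point per mouse. Mice 6 and 8 lie apart at the low end of Dbp in every panel; r of Nr1d1 is 0.843 with them and 0.700 without, and r of Tef is 0.825 with them and 0.0467 without.

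A fit across the array placed these relations among all genes. Log2 intensity was regressed on log2 Dbp with limma, and 257 of the other 6264 probe sets (4.10%) passed an adjusted p of 0.05, with a positive slope for 77 (1.23%) and a negative one for 180 (2.87%). Of the 7 other tested members 0 passed. In data simulated without scatter of variances, the fit found 14.5% of planted slopes of 0.5, so that count cannot show that slopes of such size are absent. Nr1d1 came nearest, with a slope of 0.70 ± 0.17 (SE) log2 units per log2 unit of Dbp (adjusted p = 0.0543). Its slope was 1.02 without mice 6 and 8. For Tef the slope was 0.44 ± 0.133 (adjusted p = 0.106), and 0.03 without mice 6 and 8. Per3 had 0.50 ± 0.255 (adjusted p = 0.310), Per1 0.34 (adjusted p = 0.373), Cry1 0.18, Per2 0.13 and Nfil3 -0.10. At an unadjusted p under 0.05, 2 of 7 members had positive slopes (Nr1d1 and Tef), where 9.75% of probe sets did, and 0 had negative ones, where 10.3% did.

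Because mice 6 and 8 also had the highest levels of interferon response genes, the clock genes were regressed on an interferon score. The score is the mean over 14 tested interferon response genes of log2 intensity minus each gene's mean. It was 2.07 in mouse 6 and 1.58 in mouse 8, and -1.52 to 0.76 in the others. The macrophage score was 1.69 and 0.93 in the same livers, against -0.90 to 0.09. By contrast, the hepatocyte score was -0.20 and -0.09, against -0.05 to 0.11. Log2 Dbp, as a difference from its mean, was -0.90 in mouse 6 and -0.73 in mouse 8, against 0.02 to 0.54. Their part in the level of Dbp was not tested.

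The array-wide fit on that score called 423 of 6251 probe sets (6.77%), 298 of them (4.77%) with a positive slope, and 0 of 8 members. In data simulated without scatter of variances, it found 8.5% of planted slopes of 0.2, so the count of 0 cannot show that slopes of such size are absent. Dbp had a slope of -0.30 ± 0.083 (SE) log2 units per unit of score (adjusted p = 0.0650), and -0.03 without mice 6 and 8. For Tef it was -0.17 ± 0.0505 (adjusted p = 0.0805), and -0.07 without them. Nr1d1 had -0.20 ± 0.0861 (adjusted p = 0.210) and Cry1 -0.15 ± 0.0577 (adjusted p = 0.170). Per3, Per1, Per2 and Nfil3 had -0.13, -0.08, -0.07 and 0.09 (adjusted p from 0.404 to 0.620). At an unadjusted p under 0.05, 4 of 8 members had negative slopes, namely Dbp, Tef, Cry1 and Nr1d1, where 11.3% of probe sets did. None had a positive slope at that level, where 10.8% did. The median correlation with the score was -0.58 over the members and -0.06 over all tested probe sets, as a description. Over all 8 mice, r of Dbp with the score was -0.786. Mice 3 and 7, 2 single livers chosen after the values were seen, had alike Dbp levels at different scores, a description that tests nothing. The score of mouse 3, 0.76, was the third highest, while its Dbp of 1439 equalled that of mouse 7, whose score of -1.52 was the lowest.

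**Figure D4:**
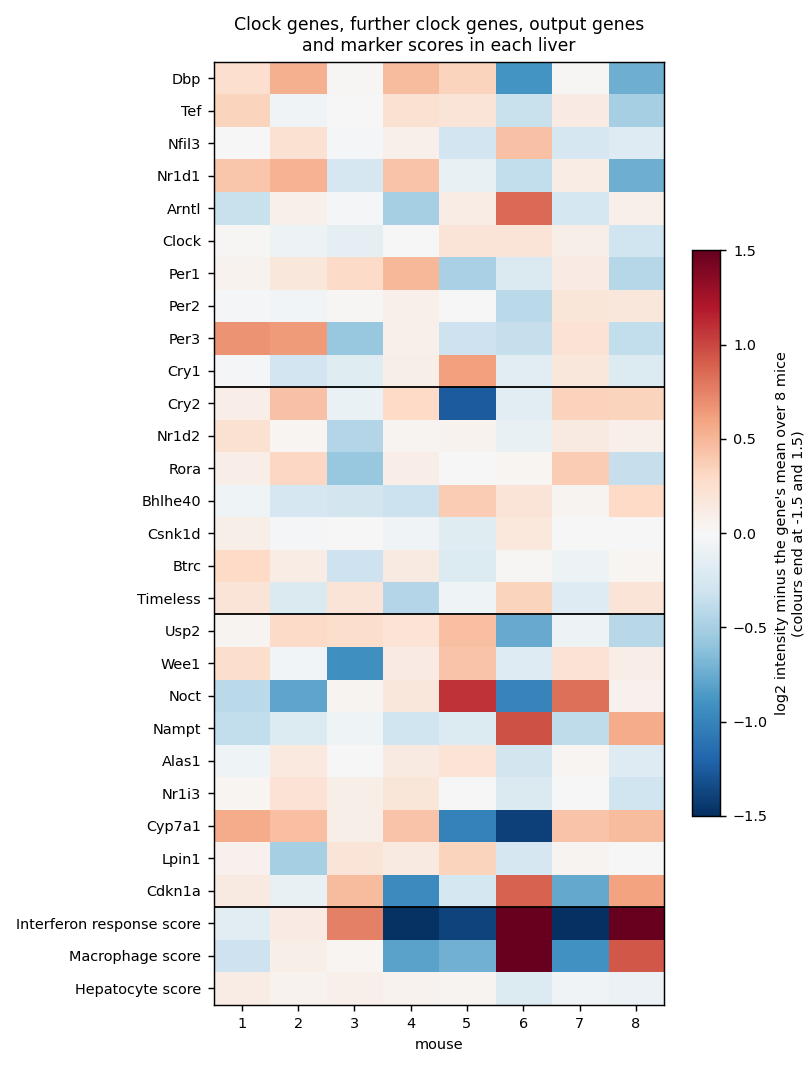
Colours give the deviation of log2 intensity in each mouse (columns) from the mean of the row, ending at -1.5 and 1.5, for the 10 clock genes, 7 further clock genes, 9 output genes and 3 marker scores (rows, in blocks from the top). Dbp, Tef and Nr1d1 are lowest in mice 6 and 8, where the interferon score is 2.07 and 1.58, while Per2 in mouse 8 and Nfil3 in mouse 6 are above their means.

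Further genes of the loop gave no called slope. Of 18 listed, 10 were measured and 7 tested. On Dbp 0 passed in either direction, where 4.10% of probe sets did, and on the interferon score 0 passed, where 6.77% did. With 7 genes a count of 0 cannot be told from those shares. The brightest were Csnk1d, a kinase that phosphorylates PER proteins, at 1375 ± 93.7 (SD, n = 8), Bhlhe40, a repressor of CLOCK and BMAL1, at 1371 ± 260, and Nr1d2, the REV-ERB beta repressor, at 1094 ± 141. Nr1d2 ran from 800 in mouse 3 to 1270 in mouse 1. In mice 6 and 8 it was 1006 and 1141, inside the range of the other livers, unlike its paralog Nr1d1. The slope of Nr1d2 on Dbp was 0.07 ± 0.150 (SE, adjusted p = 0.843). At an unadjusted p under 0.05, 1 of 7 had a negative slope on Dbp and 1 of 7 a positive slope on the interferon score, where 10.3% and 10.8% of probe sets did. Both were Timeless, a replication fork protein named after a fly clock gene and chosen here after its values were seen. Timeless was 431 and 391 in mice 6 and 8 and 252.2 to 392.2 in the others, with slopes of -0.36 ± 0.143 on Dbp (adjusted p = 0.196) and 0.15 ± 0.0503 on the score (adjusted p = 0.106).

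Of 18 listed output genes of the liver clock, 12 were measured and 9 tested. With Dbp, 1 of 9 had a called positive slope, where 1.23% of probe sets did, and 1 of 9 a called negative one, where 2.87% did. Usp2, a deubiquitinase with a strong daily rhythm, was 957 and 1213 in mice 6 and 8 and 1526 to 2211 in the others. Its slope on Dbp was 0.69 ± 0.133 (SE, adjusted p = 0.0276). Leaving out mouse 1, 4, 6 or 8 ended that call (adjusted p = 0.0504, 0.0621, 0.355 and 0.112), as did averaging all Usp2 probe sets (slope 0.63, adjusted p = 0.0876). Nampt, the rate-limiting enzyme of NAD salvage, went the other way, with 1586 and 1209 in mice 6 and 8 and 632 to 783 in the others. Its slope was -0.83 ± 0.149 (adjusted p = 0.0237), lost without mouse 4, 6 or 8 (adjusted p = 0.0584, 0.327 and 0.108). Within the other 6 livers the slopes were 0.40 for Usp2 and -0.03 for Nampt. With the interferon score as a covariate they were 0.71 (adjusted p = 0.743) and -0.57 (adjusted p = 0.872), and neither call held. The count over all probe sets fell from 257 to 0 with that covariate, so the loss is not particular to these genes.

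The brightest outputs, Alas1, the first enzyme of heme synthesis, and Nr1i3, the xenobiotic receptor CAR, had slopes on Dbp of 0.29 ± 0.0983 (adjusted p = 0.137) and 0.31 ± 0.0979 (adjusted p = 0.117). Alas1 was 9913 and 10460 in mice 6 and 8 against 11510 to 13893, a separation of small size. Noct, a rhythmic deadenylase-family gene, and Cyp7a1, which starts bile acid synthesis from cholesterol, spread most in the list and were chosen after their values were seen. Noct ran from 514 in mouse 6 and 591 in mouse 2 to 2168 in mouse 5. Cyp7a1 was 258 in mouse 6 and 337 in mouse 5, and 723 to 1000.4 in the rest. Mouse 8 was inside the range of the other livers for both, at 1077 and 950.4.

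Genes with the pattern most like Dbp were ranked by r over 8 mice among 4868 other named genes. The highest were Car3, a carbonic anhydrase of liver, muscle and fat that is also on the adipocyte marker list, at r = 0.987, Atp5k and Atp5a1, subunits of the mitochondrial ATP synthase, at 0.976 and 0.975, Hamp, the iron hormone hepcidin, at 0.968, and Gstt1, a glutathione transferase, at 0.968. The most opposite were Lcp1, an actin bundling protein of white cells, at -0.984, Sumo3 at -0.983, Tpm4 at -0.966, Ptprc, the pan-leukocyte marker CD45, at -0.960, and Dnajc10 at -0.960. No clock gene was among these 10. Car3 kept r = 0.982 and Lcp1 -0.964 without mice 6 and 8. Ptprc was 667.8 and 539.2 in mice 6 and 8. In the other livers it was 16.2 to 143.6, below the level set for testing in each. Ptprc thus entered the ranking only through mice 6 and 8, where Dbp was low, so the brightness limit itself favoured a negative r. Its r without them was -0.724, on those dim values. All 10 share the arrays and their scaling with Dbp, and they were picked as the extremes of 4868 values, so these are descriptions.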

How the data were processed

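Liver RNA of 8 mice of 1 group was measured on 1 array each. The deposited values are intensities on a linear scale, 1 per probe set and array, per the file headers. The sources used here do not name the software that made them. Their trimmed means (2% off each end) lay between 500.352 and 500.422, so they were taken as already scaled by the authors. Intensities were raised to a floor of 37.2 (25th percentile) and log2 was taken. Tests covered probe sets averaging 165.2 or more (median), and 66 control probe sets were left out. Symbols came from the platform annotation (10833 probe sets with 1 symbol, 396 with several, 1193 with none), of which 10817 were found by Entrez identifier and 0 changed. The brightest probe set stood for a gene.

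Spread was tested by limma 3.58.1 (R 4.3.3) squeezeVar with a robust trend, slopes by lmFit and eBayes (robust), and pairs by exact permutation over 40320 pairings. Adjustment was by Benjamini-Hochberg at 0.05. The F test and both slope fits were tested on simulated data. There the F test recovered no widened probe set at the estimated scatter of variances. The slope fits were simulated only without that scatter, unlike the data, and recovered few of the smaller planted slopes. They found 14.5% of slopes of 0.5 on Dbp and 8.5% of slopes of 0.2 on the score. Members and gene lists were chosen with earlier results of these data known. Named genes were the members, the 3 brightest tested genes of each list, those past a slope test, and the 5 genes most and least like Dbp. Alternatives changed the floor, filter, scaling, probe set choice, test and mice. The number of arrays limits the precision.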

Additional observations from a re-analysis of the deposited data

Results flagged for a closer look

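Among the 68 genes looked at, 6 had 1 mouse far from the other 7, by a gap divided by the whole range, both on the log2 scale, above Dixon's critical value for 8 samples. Levels below are linear intensities, and the ratios beside them are those of log2 values. Chance alone picks about 1 gene in 20 this way. Per2, the period gene, was 306.3 in mouse 6, with the next liver at 394.3 (0.617 of the range). Arntl, encoding BMAL1, was 112.5 in mouse 6 and 67.5 in the next liver (0.548), below the level set for testing. Cry2, a cryptochrome inhibitor of the loop, was 156.5 in mouse 5 and at least 329.1 elsewhere (0.634). Wee1, a cell cycle kinase and clock output, was 212.1 in mouse 3 and at least 349.4 elsewhere (0.535). Cpt1a, the carnitine transferase of fatty acid oxidation, was 12077.8 in mouse 5 and at most 7972.6 elsewhere (0.616). Cirbp, the cold-inducible RNA-binding protein, was 619.0 in mouse 5 and at least 786.0 elsewhere (0.555). Mouse 5 thus had 3 of the 6 values, mouse 6 had 2 and mouse 3 had 1.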

How the results depend on the processing

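Of 791 values recomputed under alternatives, 670 stayed the same. For a tested value this meant the same direction and side of the threshold, and for a count, a value within a set ratio of the main one. Of the rest, 43 lost the threshold, 18 gained it, 23 changed sign, and 37 were counts that moved beyond that ratio. The causes were not tested. Members with a called spread were 0 throughout except 3 under the chi-square test. Members with a called slope on Dbp were 0, against 2 with arrays at a common median, 1 with limma-trend, 1 with quantile normalization, 1 with a stricter brightness limit and 0 to 1 with single mice left out. On the interferon score they were 0, against 2 at a common median, 1 with limma-trend, 1 with the stricter limit and 0 to 1 with single mice left out. Called pairs were 1, against 0 by Spearman's rho, 2 at a common median, 0 with no brightness limit, 2 with the stricter limit, 0 without mice 6 and 8, and 0 to 1 with single mice left out. The adjusted p of Dbp and Nr1d1 (exact permutation) ran from 0.0153 to 0.628 over 17 alternatives and passed in 7. With no brightness limit and with the stricter one, r was 0.843 for this pair and 0.825 for Dbp and Tef, as in the main setting. Only the number of pairs adjusted over differed there, and the 0.0153 came from the stricter limit, with the fewest pairs.

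Sign changes touched weak relations. Without mice 6 and 8, r of Dbp was -0.0509 with Cry1, 0.578 with Nfil3 and -0.521 with Per2. By Spearman's rho Dbp gave 0.0714 with Nfil3 and -0.143 with Per2, and Nfil3 gave r = 0.00655 at a common median and 0.0155 after quantile normalization. With single mice left out r ran from -0.479 to 0.522 for Dbp and Nfil3, -0.687 to 0.745 for Dbp and Per2, -0.0430 to 0.628 for Nr1d1 and Nfil3 and -0.158 to 0.430 for Per1 and Per2. The mean of all probe sets gave r = -0.504 for Nr1d1 and Nfil3. For Dbp and Nfil3 that setting kept the sign but gave r = -0.790 (exact permutation, adjusted p = 0.0527). The slope of Nfil3 on Dbp was then -0.46 (limma adjusted p = 0.120), so its size depends on the probe set used. Slopes on Dbp without mice 6 and 8 were -0.0734 for Cry1, 0.51 for Nfil3 and -0.19 for Per2. With the interferon score as a covariate they were -0.32, 0.24 and -0.0423 in that order. The Nfil3 slope was 0.00244 at a common median and 0.00627 after quantile normalization. With single mice left out it ran from -0.25 to 0.23, and that of Per2 from -0.14 to 0.28. The slope of Per1 on the interferon score was 0.0783 without mice 6 and 8. The 10 genes most and least like Dbp kept the sign of r under 13 settings, with sizes from 0.724 to 0.995.

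Over all probe sets, the 257 slopes called on Dbp became 0 without mice 6 and 8 and 0 with the interferon covariate, and ranged from 0 (without mouse 6) to 296 with single mice left out (16 without mouse 8, 58 without mouse 4, 102 without mouse 1). The 423 called on the interferon score became 13 without mice 6 and 8, and 137 to 405 with single mice left out. Unadjusted F test picks were 400, against 204 with the stricter limit and 1596 by the chi-square test. Leaving out mice 6 and 8, and the interferon covariate, were chosen after seeing the data. No paired analysis was possible because there is 1 group. Members near the brightness limit (Nfil3, Arntl, Clock) are limited by signal over background.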

Other observations

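Other stimuli that reset clock genes were followed through lists of their known responders. Glucocorticoid responsive genes (11 listed and measured, 9 tested) gave 1 called slope on the interferon score, a positive one, where 4.77% of all probe sets had one. It was that of Fkbp5, a chaperone of the glucocorticoid receptor. Fkbp5 was 922 and 873 in mice 6 and 8 against 498 to 779 in the others, with a slope of 0.22 ± 0.0398 (SE, limma adjusted p = 0.0108). That call was lost without mouse 6 (adjusted p = 0.0877) or mouse 8 (adjusted p = 0.0581), and with arrays at a common median (adjusted p = 0.0506). The brightest of the list were Tat, which breaks down tyrosine, at 14774 ± 3097 (SD, n = 8), and the metallothioneins Mt1 and Mt2 at 9863 ± 2667 and 7923 ± 1753, none of them called. Fasting and feeding genes (12 listed, 10 measured, 9 tested) gave 0 called slopes on Dbp or the score. Over all probe sets 4.10% and 6.77% were called, so a count of 0 among so few genes cannot be told from those shares. The brightest were Scd1, the stearoyl desaturase, at 16906 ± 2940, Igfbp1 at 9718 ± 1601 and Cpt1a at 7507 ± 1923. At an unadjusted p under 0.05 (limma), 3 of 9 had positive slopes on Dbp, where 9.75% of probe sets did, and 0 negative ones. On the score 3 of 9 had negative slopes, where 11.3% did, and 0 positive ones. G6pc, chosen after its values were seen, spread most in the list, from 541 in mouse 2 to 4958 in mouse 5. Its slope on Dbp was -1.26 (limma adjusted p = 0.284). Temperature responsive genes (8 listed, 7 measured, 6 tested) also gave 0 called slopes, which again cannot be told from the shares of 4.10% and 6.77%. Their brightest were the chaperones Hspa8 and Hsp90aa1 at 3473 ± 236 and 1514 ± 182 and Cirbp at 827 ± 106.

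Immediate early genes (10 listed and measured, 6 tested) gave 2 called positive slopes on the interferon score, where 4.77% of all probe sets had one. On Dbp they gave 0 called slopes, where 4.10% of all probe sets had one. Atf3, a stress-induced repressor, was 474 and 343 in mice 6 and 8 against 161 to 248, with a slope of 0.35 ± 0.0486 (limma adjusted p = 0.00248), on a probe set that shares probes with related transcripts. With the mean of all Atf3 probe sets the slope was 0.20 and the call was lost (adjusted p = 0.0677). Btg2, an antiproliferative gene, was 1442 and 1106 in mice 6 and 8 against 580 to 1090.5, with 0.25 ± 0.0605 (adjusted p = 0.0381), a call lost without mouse 2, 4, 5, 6 or 8 (adjusted p from 0.0506 to 0.242), at a common median (0.0563) and with no brightness limit (0.0808). Ier2 at 937 ± 123 and Egr1 at 411 ± 103 were not called. Of the clock output genes, Cdkn1a, the cell cycle inhibitor p21, had a slope of 0.44 ± 0.0602 on the score (adjusted p = 0.00248), and Nampt 0.30 ± 0.0665 (adjusted p = 0.0277). The Nampt call was lost without mouse 4, 6, 7 or 8 (adjusted p from 0.0536 to 0.207) and with no brightness limit (0.0635). Without mice 6 and 8 the adjusted p was 0.220 for Cdkn1a and 0.358 for Atf3.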
